A study of Mus musculus with 6 samples.

Results

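Surfactant is the film of phospholipid and protein that keeps alveoli open during breathing. Alveolar type 2 cells make it, store it in lysosome-related organelles called lamellar bodies, secrete it, and take much of it up again. The 10 genes described here, chosen by gene symbol, are surfactant and alveolar type 2 genes, and not all of them belong to that pathway. They encode the surfactant proteins Sftpa1, Sftpb, Sftpc and Sftpd, the lamellar body proteins Abca3 and Lamp3, the lipid enzyme Lpcat1, the protease Napsa, the phosphate transporter Slc34a2 and the chitinase Chia1. All 10 were found among the 22477 gene symbols of the count table, and all 10 passed the filter on low counts.

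Polyadenylated RNA of 2 normal lungs and 4 tumors of the lung was sequenced, each from its own mouse. Every mouse had the genotype listed as Rb1/Trp53/MycT58A, in which floxed Rb1 and Trp53 are deleted and a lox-stop-lox Myc T58A allele is switched on by Cre recombinase. The RPM model, named after these 3 genes, forms small cell lung cancer. Cre was carried by the adenovirus Ad5CGRP-Cre, whose CGRP promoter directs it to neuroendocrine cells, and was instilled into the trachea at 8 weeks of age. The labels name the same virus for the normal lung samples, and the age at collection is not given in the sources used here. No treatment arm is given for these libraries. They are called normal 1 and 2 and tumor 3, 4, 5 and 6, after the numbers in their titles. RNA came from whole frozen tissue, so fewer cells of a type and less RNA per cell cannot be told apart in any result below.

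Total counts ran from 54735438 to 99122494 per library, and were higher in the normal libraries than in the tumors. Levels are given as CPM, the usual depth-normalised count, on library sizes scaled by edgeR's TMM method. The tissue labels were checked against marker genes. All 8 neuroendocrine genes examined were higher in tumors (edgeR, adjusted p under 0.05), among them the vesicle protein gene Syp, at 71.3 to 104 CPM in tumors against 5.38 and 5.80 in normal lung. Sftpc, the defining marker of alveolar type 2 cells, had the second and the third highest count of all genes in normal 1 and normal 2.

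The start of a gene carries part of its regulation, and promoters are shown for some members that differed in how much was left in tumor 6. RefSeq promoters on GRCm38.p6 were matched for 7 of the 10 genes and not for Sftpc, Sftpd and Napsa. The 250 bases before the start are printed 5′ to 3′ on the strand of the gene, for 3 genes that were close to absent from tumor 6 (Sftpb, Sftpa1, Lamp3) and for the 2 that were not (Abca3, Lpcat1). Chia1 and Slc34a2, also close to absent from tumor 6, were matched but are not printed. Capitals mark matches, on either strand, to the 5 motifs named after the sequences.
Sftpb, chr6:72304360-72304609, plus strand: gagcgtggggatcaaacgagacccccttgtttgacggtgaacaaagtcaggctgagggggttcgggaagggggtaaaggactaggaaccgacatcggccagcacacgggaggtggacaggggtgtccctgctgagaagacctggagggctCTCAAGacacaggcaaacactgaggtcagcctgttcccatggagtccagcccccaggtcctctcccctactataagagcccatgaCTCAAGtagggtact
Sftpa1, chr14:41131538-41131787, plus strand: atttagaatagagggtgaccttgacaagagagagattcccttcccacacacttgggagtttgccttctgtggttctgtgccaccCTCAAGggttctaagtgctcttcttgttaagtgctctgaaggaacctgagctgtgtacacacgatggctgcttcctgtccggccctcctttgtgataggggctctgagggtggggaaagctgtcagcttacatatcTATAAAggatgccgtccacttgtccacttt
Lamp3, chr16:19706366-19706615, minus strand: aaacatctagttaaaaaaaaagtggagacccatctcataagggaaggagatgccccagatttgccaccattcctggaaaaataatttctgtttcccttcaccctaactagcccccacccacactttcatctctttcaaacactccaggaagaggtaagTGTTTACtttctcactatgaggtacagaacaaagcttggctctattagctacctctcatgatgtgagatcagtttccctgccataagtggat
Abca3, chr17:24351773-24352022, plus strand: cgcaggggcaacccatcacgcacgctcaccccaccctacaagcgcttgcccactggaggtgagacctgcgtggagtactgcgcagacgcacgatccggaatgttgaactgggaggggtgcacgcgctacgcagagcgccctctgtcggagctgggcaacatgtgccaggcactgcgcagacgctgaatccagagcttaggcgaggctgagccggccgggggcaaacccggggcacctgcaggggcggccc
Lpcat1, chr13:73466981-73467230, plus strand: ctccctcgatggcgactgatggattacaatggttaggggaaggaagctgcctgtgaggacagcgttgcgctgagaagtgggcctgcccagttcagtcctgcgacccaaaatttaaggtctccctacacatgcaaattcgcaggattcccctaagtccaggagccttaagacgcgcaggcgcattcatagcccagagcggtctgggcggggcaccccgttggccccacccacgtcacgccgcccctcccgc

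The core recognised by NKX2-1 was searched as CTCAAG. Sftpb held 2 matches to it, beginning 100 and 15 bases before the start, and Sftpa1 held 1, beginning 166 bases before it. Of the 32851 promoters in the table, 13.3% held such a match. Sftpa1 also had a TATA box, written TATAAA, beginning 30 bases before the start, a match that 12.4% of promoters held, and Chia1 had one beginning 43 bases before its start. Lamp3 had the FOXA core, written TGTTTAC, beginning 92 bases before its start (3.17% of promoters). The C/EBP core, written TTGCNNAA, was found in Slc34a2 alone of the 7 genes (9.56% of promoters). The GATA core, written AGATAA, was in none of them (9.99% of promoters). No motif of the 5 was in these letters of Abca3 or Lpcat1, and each motif by itself was missing from most promoters. The CpG count was 21 for Abca3 and 16 for Lpcat1, against 7 for Sftpb, 3 for Sftpa1, 0 for Lamp3 and a median of 6 over all promoters. Among the matched genes whose sequence is not shown, Slc34a2, close to absent from tumor 6, had 28 CpG and Chia1 had 2, so CpG count did not separate the 2 kinds.

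All 10 genes were lower in tumors than in normal lung, and in every one each tumor lay below both normal libraries. The 10 were chosen with earlier results of these data known. Of the 18027 genes tested, 32.6% were lower in tumors by the same test (edgeR quasi-likelihood, adjusted p under 0.05), and 39.8% had every tumor below both normal libraries. A further 31.3% were higher, so 63.9% passed in either direction. The median log2 fold change was -5.64 over the 10 genes and 0.02 over all genes tested. Together the 10 genes took 2.52% and 2.33% of the counts of normal 1 and 2. Their share was 0.0599%, 0.0556%, 0.0917% and 0.00968% in tumors 3, 4, 5 and 6, so it was lowest in tumor 6. What was left differed by gene and by tumor, and most of this account concerns that remainder.

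**Figure D1:**
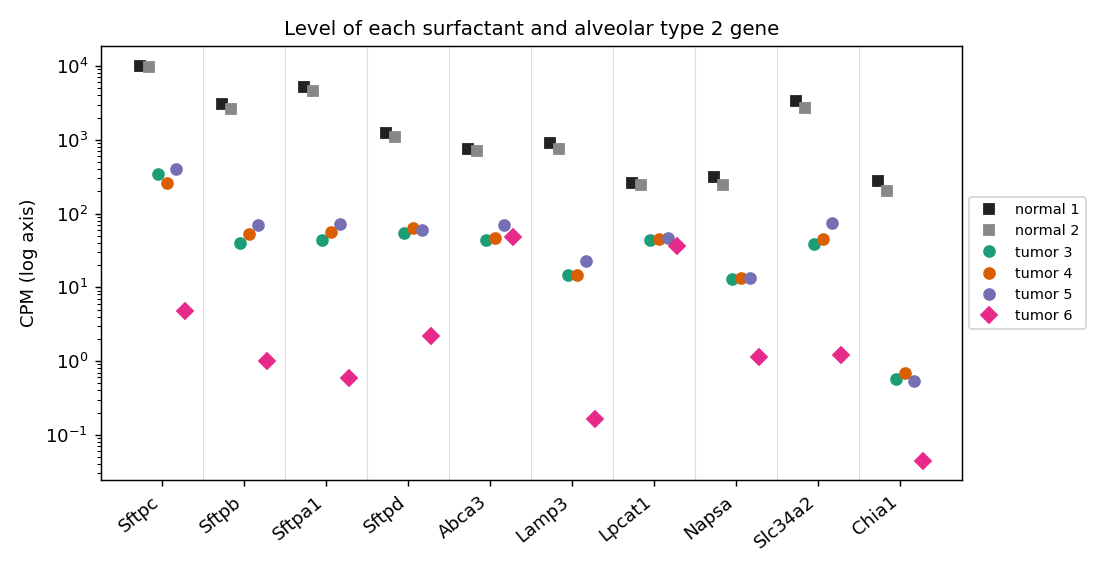
CPM (log axis) of each of the 10 genes in each library, with squares for the normal libraries, circles for tumors 3, 4 and 5 and diamonds for tumor 6. Every tumor lies below both normal libraries for every gene, and tumor 6 lies far below the other tumors for 8 of the 10, but not for Abca3 or Lpcat1.

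Sftpc encodes surfactant protein C, a small and very hydrophobic protein cut from a transmembrane precursor. Its level was 10103 and 9747 CPM in normal 1 and 2, and 340 CPM in tumor 3, 259.7 in tumor 4, 400.1 in tumor 5 and 4.79 in tumor 6. The normal libraries were close to each other, tumors 3 to 5 formed a second level, and tumor 6 stood alone below them. The log2 fold change was -5.30 ± 1.27 (SE, adjusted p = 0.01, edgeR), from 9925 ± 251 (SD, n = 2) to 251.2 ± 174 CPM (n = 4). Without tumor 6 it was -4.80 ± 0.31 with adjusted p = 0.000175.

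Sftpb encodes surfactant protein B, which is needed for lamellar bodies to form and for the lipid film to spread. It stood at 3027 and 2646 CPM in normal lung, and at 40.0, 53.2, 70.1 and 1.00 CPM in tumors 3 to 6. This was a 69.0-fold fall (log2 fold change -6.11 ± 1.25, adjusted p = 0.00521, edgeR). Sftpb kept a smaller part of its normal level than Sftpc in each tumor, as the ratio of Sftpc to Sftpb counts shows. It was 3.34 and 3.68 in normal lung, and 8.50, 4.88, 5.71 and 4.78 in tumors 3 to 6.

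The 2 surfactant collectins, lectins of innate defense that bind sugars on microbes, fell by different amounts. Sftpa1, of surfactant protein A, went from 5114 and 4544 CPM to 44.0, 56.0, 72.4 and 0.598 CPM in tumors 3 to 6. Sftpd, of surfactant protein D, went from 1252 and 1084 CPM to 53.7, 64.0, 60.2 and 2.18 CPM. Their log2 fold changes were -6.80 ± 1.39 and -4.70 ± 1.03 (adjusted p = 0.00516 and 0.00708, edgeR). Normal lung had 0.245 and 0.239 counts of Sftpd for each count of Sftpa1. Tumors 3 to 6 had 1.22, 1.14, 0.832 and 3.65. Divided by exon length, Sftpd was above Sftpa1 in every tumor and in neither normal library. In tumor 5 it was at 47.3 CPM per kb against 25.3 for Sftpa1.

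Abca3 encodes the transporter that loads phospholipid into lamellar bodies. Its level was 747 and 713 CPM in normal lung and 43.5, 46.1, 69.5 and 48.3 CPM in tumors 3 to 6, with tumor 6 inside the range of the other tumors. The fall was 14.1-fold (log2 fold change -3.82 ± 0.22, adjusted p = 4.62e-05, edgeR). Exons of D330041H03Rik on the opposite strand overlap 914 bases of Abca3 exons in GENCODE on GRCm38. That gene ran at 106 and 96.4 CPM in normal lung and 9.07 to 13.8 CPM in tumors, and reads of the shared bases cannot be assigned to one strand here.

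Lpcat1 encodes the acyltransferase that makes the saturated phosphatidylcholine typical of surfactant. It was the least reduced of the 10, at 257 and 245 CPM in normal lung and 43.9, 44.8, 47.3 and 36.0 CPM in tumors 3 to 6. Tumors lay within 1.32-fold of each other, and the log2 fold change was -2.55 ± 0.15 (adjusted p = 4.94e-05, edgeR). Of all genes tested, 15.9% had a lower log2 fold change than Lpcat1, against 1.32% for the median of the 10 genes.

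Lamp3 encodes a lysosomal membrane glycoprotein found in lamellar bodies and in mature dendritic cells. It went from 905 and 752 CPM to 14.8, 14.9, 22.9 and 0.165 CPM in tumors 3 to 6, a log2 fold change of -5.97 ± 1.30 (adjusted p = 0.00684, edgeR). The tumor 6 value rests on 11 counts. The 7 dendritic cell genes examined summed to 92.6 and 98.2 CPM in normal lung and 10.3 to 17.5 CPM in tumors, with 11.5 in tumor 6. Ccr7, which marks mature dendritic cells, was at 4.25 and 9.71 CPM in normal lung and 0.157 to 1.42 in tumors. The part of dendritic cells in the level of Lamp3 was not tested.

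Napsa encodes napsin A, an aspartic protease that takes part in cutting the precursor of surfactant protein B. Tumors 3, 4 and 5 were nearly equal, at 13.0, 13.4 and 13.2 CPM, and tumor 6 was at 1.12, against 315 and 242 CPM in normal lung. The log2 fold change was -4.77 ± 0.83 (adjusted p = 0.00261, edgeR). Exons of Gm15396 on the opposite strand overlap 502 of the 2660 exon bases of Napsa in GENCODE on GRCm38. That gene is not among the counted symbols, and reads of the shared bases cannot be assigned to one strand.

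Slc34a2 encodes a sodium-dependent phosphate transporter of the apical membrane. Its level was 3337 and 2708 CPM in normal lung, and 38.7, 45.1, 75.0 and 1.20 CPM in tumors 3 to 6. It fell 75.6-fold (log2 fold change -6.24 ± 1.23, adjusted p = 0.00442, edgeR).

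Chia1 encodes acidic mammalian chitinase, a secreted enzyme that breaks down inhaled chitin. It was the most reduced of the 10, from 279 and 200 CPM to 0.581, 0.687, 0.534 and 0.0449 CPM in tumors 3 to 6. These are 39, 35, 41 and 3 counts. The log2 fold change was -9.03 ± 0.77 (adjusted p = 0.000155, edgeR).

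**Figure D2:**
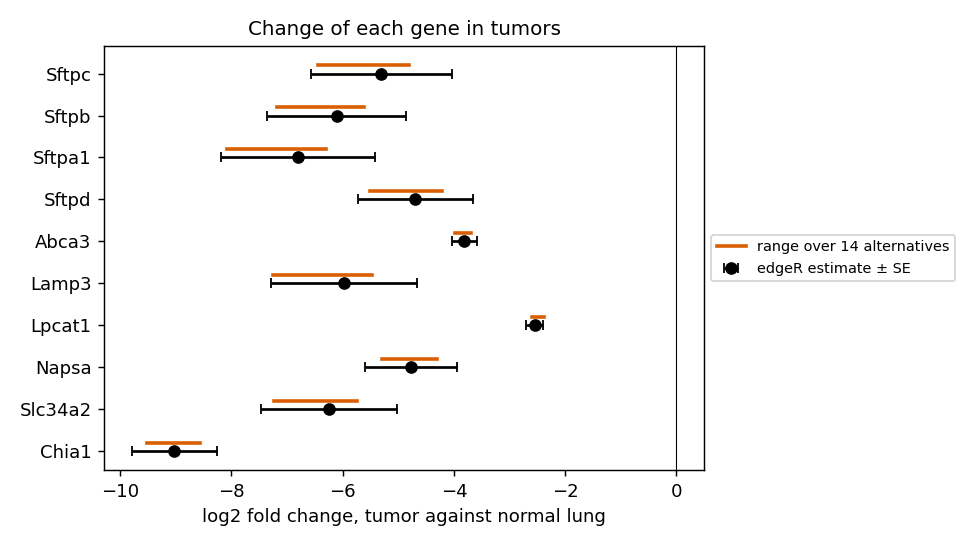
Log2 fold change of tumor against normal lung for each gene, with points and bars for the edgeR estimate and its SE and lines for the range over 14 alternative analyses. Abca3 and Lpcat1 have small errors and lie nearest 0, and Chia1 lies farthest from it at -9.03.

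Each of the 10 genes was lower and past the threshold under all 14 alternatives. The largest adjusted p was 0.0335, for Sftpc without normal 1, where the remaining normal library is assumed to vary as the tumors do. Leaving out tumor 6 moved the median log2 fold change to -5.14, and no fold change by as much as 1.5 times. With limma voom the median was -6.81.

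The level left in each tumor was set against the mean of the 2 normal libraries. In tumors 3, 4 and 5 the median over the 10 genes was 2.61%, 2.25% and 3.40%. In each of these 3 tumors Chia1 had the least left (0.223% to 0.287%), then Sftpa1 (0.912% to 1.50%), and Lpcat1 had the most (17.5% to 18.9%). Between them, Sftpb had 1.41% to 2.47%, Slc34a2 1.28% to 2.48%, Lamp3 1.79% to 2.76%, Sftpc 2.62% to 4.03%, Sftpd 4.60% to 5.48%, Napsa 4.67% to 4.82% and Abca3 5.95% to 9.52%. The ranges of Sftpb, Slc34a2 and Lamp3 overlap, as do those of Lamp3 and Sftpc and those of Sftpd and Napsa. Tumor 5 was the highest tumor for 7 genes and tumor 4 for the other 3, which were Sftpd, Napsa and Chia1.

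Tumor 6 had a median of 0.0439% left. It was the lowest tumor for 9 genes, the exception being Abca3. Against the lowest of tumors 3 to 5 it was 89.9-fold lower for Lamp3, 73.6-fold for Sftpa1, 54.2-fold for Sftpc, 39.9-fold for Sftpb, 32.3-fold for Slc34a2, 24.6-fold for Sftpd, 11.9-fold for Chia1 and 11.6-fold for Napsa. For Lpcat1 this ratio was 1.22, and for Abca3 tumor 6 was above the lowest of the others. Tumor 6 still had 320 counts of Sftpc, or 0.0482% of the normal mean (95% exact Poisson interval 0.0431% to 0.0538%). With 40 counts, Sftpa1 was at 0.0124% (0.00885% to 0.0169%), and Chia1, with 3 counts, at 0.0187% (0.00387% to 0.0548%). Abca3 was at 6.61% (6.39% to 6.84%) and Lpcat1 at 14.3% (13.8% to 14.9%). These intervals cover counting error only, and tumor 6 is a single tumor without a replicate of its own.

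**Figure D3:**
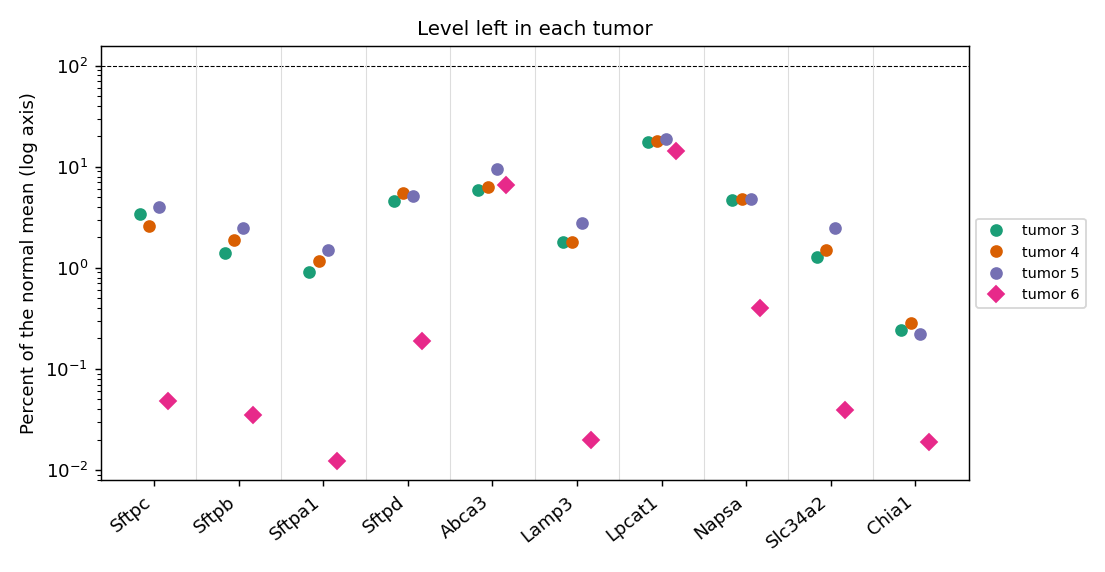
CPM in each tumor as a percent of the mean of the 2 normal libraries (log axis), with the dashed line at 100. Lpcat1 and Abca3 keep similar parts in all 4 tumors, while the diamonds of tumor 6 drop to between 0.0124% and 0.403% for the other 8 genes.

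A gap of this size was rare among all genes. Among the 12049 tested genes with at least 5 CPM in normal lung, 0.373% were at least 10 times lower in tumor 6 than in the lowest other tumor, against 8 of the 10 described here. This comparison was chosen after the values were seen. The highest and the lowest tumor differed 1.63-fold in the median gene of that set, and by 3.76-fold at its 90th percentile. With 0.5 counts added to each library, the spread of Sftpa1 (119-fold) and Sftpc (83.4-fold) exceeded that of 99.8% and 99.7% of the genes. That of Lpcat1 (1.32-fold) exceeded 18.4% and that of Abca3 (1.60-fold) 47.8%.

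Ratios between genes within one library do not depend on scaling. Sftpc had 39.3 and 39.8 counts for each count of Lpcat1 in normal 1 and 2. The ratio was 7.75, 5.80, 8.45 and 0.133 in tumors 3 to 6. For each count of Abca3 there were 13.5 and 13.7 counts of Sftpc in normal lung, and 7.83, 5.63, 5.75 and 0.0991 in tumors. Both ratios were lower in every tumor than in either normal library. The exact permutation p was 0.133 for each (two-sided by doubling the smaller tail, 4 against 2 libraries, 0.133 after Benjamini-Hochberg adjustment over the 2). That is the smallest value this form of the test can give here. Lpcat1 and Abca3 are the least reduced of the 10 in these same data, so the separation followed from their choice and the test adds no support. Abca3 and Lpcat1 together made up 3.96% and 4.19% of the counts of the 10 genes in normal lung, 13.8% to 15.2% in tumors 3 to 5 and 88.4% in tumor 6.

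Levels of different genes can be compared only per length, and were divided by the exon length in GENCODE on GRCm38. In normal lung Sftpc was highest by far, at a mean of 12532 CPM per kb. It was followed by Sftpb at 1823 and Sftpa1 at 1689, whose ranges overlapped, then by Sftpd at 916, Slc34a2 at 724, Lamp3 at 247, Napsa at 179 and Chia1 at 142, the last 2 overlapping. Abca3 at 113 and Lpcat1 at 66.8 CPM per kb were lowest. In tumor 6 Lpcat1 and Abca3 moved from the lowest places to the highest, with Lpcat1 at 9.57, Abca3 at 7.46, Sftpc at 6.04 and Sftpd at 1.71 CPM per kb, and the other 6 under 1. In tumors 3 to 5 Sftpc remained highest, at 328 to 505 CPM per kb, and Chia1 was lowest at 0.318 to 0.409.

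Other genes of alveolar type 2 cells were examined next, in a list of 14. All 14 fell (median log2 fold change -4.55). Cxcl15, a lung chemokine of type 2 cells, went from 1170 and 919 CPM to 34.3, 19.8, 44.3 and 0.449 in tumors 3 to 6, which is the pattern of Sftpc. Sfta2, a surfactant-associated secreted protein gene, and S100g, of a calcium-binding protein, were also at least 10 times lower in tumor 6 than in any other tumor. With Cxcl15 they were the only 3 of the 14 with that gap. Sfta2 missed the threshold without normal 1 (adjusted p = 0.0530, edgeR). Lyz1, the epithelial lysozyme P gene, and Il33, of an alarmin cytokine, did not share the gap. Lyz1 was at 4.75, 1.92, 5.39 and 3.34 CPM in tumors 3 to 6, and Il33 at 9.66, 4.81, 8.71 and 5.73. Lgi3 was higher in tumor 6, at 43.6 CPM, than in tumors 3 to 5, at 6.64 to 17.1.

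The 12039 tested genes of at least 5 CPM in normal lung, without the 10 themselves, were ranked by likeness to Sftpc. The measure was the root mean square difference of the log2 level left over the 4 tumors. The nearest 10 were Cxcl15 (0.24), the tight junction gene Cldn18 (0.62), Ager (0.68), the chitinase-like gene Chil1 (0.68), Wnt7a (0.86), the basement membrane collagen gene Col4a3 (0.89), Gm4956 (0.89), Mlc1 (0.93), the sodium channel subunit gene Scnn1g (0.94) and Sfta2 (0.98). Ager, a receptor gene that defines alveolar type 1 cells, had 1.99%, 1.89%, 2.25% and 0.0696% of its normal level left in tumors 3 to 6. The other 9 of the 10 genes spread over a wide range by this measure. Sftpb stood at 0.80 from Sftpc, Lamp3 at 0.81, Slc34a2 at 0.90, Sftpd at 1.15, Napsa at 1.63 and Sftpa1 at 1.64. Chia1 at 3.21, Abca3 at 3.68 and Lpcat1 at 4.62 were farthest. These distances rest on 4 libraries and describe them only.

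The supply of surfactant lipid was covered by 19 genes, of which 12 fell, 4 rose and 3 did not pass (median log2 fold change -1.13). Chpt1 and Pcyt1a, of phosphatidylcholine synthesis, had log2 fold changes of -2.99 ± 0.19 and -1.76 ± 0.12. Elovl1, an elongase of very long fatty acids, fell by 3.69 and Prdx6, a peroxiredoxin with phospholipase activity, by 3.13. Elovl6, the elongase of palmitate, rose from 12.9 and 16.1 CPM to 117, 166, 121 and 142 CPM in tumors 3 to 6 (log2 fold change 3.24 ± 0.23), and Fabp5, a fatty acid carrier, rose by 2.12 ± 0.25. The choline kinase gene Chkb and Pcyt1b, a brain-enriched relative of Pcyt1a, rose by 0.74 and 1.36. Both calls were lost if normal 1 was left out (0.61 and 1.23) or normal 2 was (0.86 and 1.48), which left 2 genes of the list that rose. None of the 19 had the tumor 6 gap.

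Processing and lamellar body genes numbered 15, of which 12 fell, 1 rose and 2 did not pass (median log2 fold change -1.09). Adgrf5, a receptor that limits the surfactant pool and is also expressed by endothelium, went from 2135 and 1827 CPM to 22.8, 32.0, 28.7 and 13.5. Rab38, a small GTPase of lysosome-related organelles, fell by 3.95 ± 0.33. Ctsh, a cathepsin that trims the precursor of surfactant protein B, was at 348 and 318 CPM in normal lung and 77.3, 60.9, 55.1 and 15.1 in tumors 3 to 6. Lamp1 and Lamp2, lysosomal relatives of Lamp3, fell by 1.79 and 2.19. Cd63, a tetraspanin of late endosomes, rose by 0.99 ± 0.28, a call lost without normal 1 (0.90) or normal 2 (1.06).

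The transcription factors known to switch on surfactant genes did not move as one. Nkx2-1, the lung lineage factor that binds surfactant promoters, was at 53.5 and 42.9 CPM in normal lung and 43.8, 23.0, 62.2 and 41.4 CPM in tumors 3 to 6. The groups overlapped and the difference did not pass, which does not show that the levels were equal (log2 fold change -0.18 ± 0.36, adjusted p = 0.688, edgeR), with a value of 0.032 without tumor 4. Foxa2, a forkhead factor of lung epithelium, also overlapped, at 42.5 and 42.8 against 40.8 to 77.7 CPM. Its log2 fold change of 0.54 passed only without tumor 3 (0.70, adjusted p = 0.0283). Foxa1 was higher in every tumor, at 31.4 to 72.0 against 28.6 and 26.4 CPM, but did not pass (0.84 ± 0.33, adjusted p = 0.0586). It passed with RLE factors (0.89), upper quartile factors (0.96), the stricter filter (0.93), non-coding and histone rows removed (0.93), DESeq2 (0.89) and without tumor 3 (1.01).

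Of all 14 regulators 9 fell, 1 rose and 4 did not pass (median log2 fold change -2.42). Gata6, of lung epithelial differentiation, fell by 4.48 ± 0.41, from 42.3 and 38.3 CPM to 2.73, 1.10, 2.19 and 1.21. Tfcp2l1, an epithelial factor, fell by 4.71 and Cebpa, of type 2 cell maturation, by 3.23, with its highest tumor level in tumor 4 (19.4 CPM against 4.23 to 7.06). Cebpb, Cebpd and Klf5 fell by 2.62, 2.58 and 2.26. Nr3c1, the glucocorticoid receptor, and Fgfr2, the receptor for alveolar growth signals, fell by 3.16 and 2.60, and Stat3 by 1.88. Nfib, a nuclear factor I gene, rose from 385 and 342 CPM to 585, 509.6, 817 and 1040 (1.02 ± 0.32). Its call was lost without normal 1 (1.10), normal 2 (0.92) or tumor 5 (0.98), leaving 0 genes of the list that rose by edgeR. With RLE factors, upper quartile factors, the stricter filter, the removal of rows or DESeq2 the number was 2, and without tumor 3 it was 3. Grhl2, of epithelial junctions, was at 40.7 CPM in tumor 4 and 1.46 to 3.09 in the other tumors, against 37.2 and 36.2 in normal lung. It did not pass (log2 fold change -1.61 ± 1.27), but did without tumor 4 (-3.89) and with limma voom (-3.05). None of the 14 had the tumor 6 gap.

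**Figure D4:**
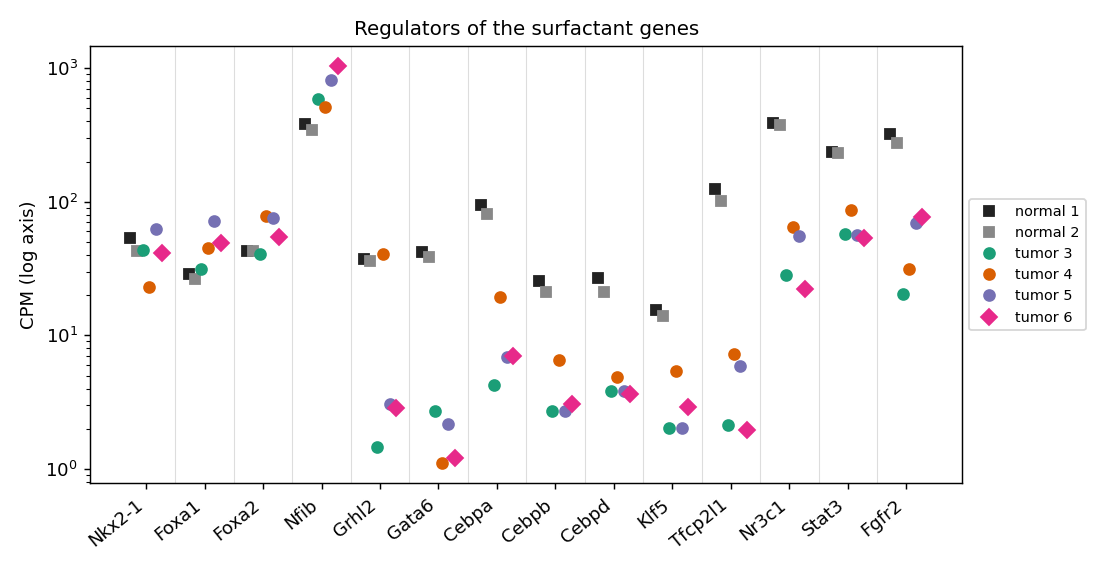
CPM (log axis) of 14 regulators of surfactant genes in each library, with squares for normal lung, circles for tumors 3, 4 and 5 and diamonds for tumor 6. Nkx2-1, Foxa1, Foxa2 and Nfib are near or above their normal level in tumor 6, while Gata6, Tfcp2l1 and Nr3c1 are far below it in every tumor.

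Relatives of the 10 genes were compared to see whether whole families moved. Of 24, 20 were tested, and 12 fell, 3 rose and 5 did not pass (median log2 fold change -1.35). In the acyltransferase family, Lpcat4 rose by 1.35 ± 0.28, a call lost without normal 1 (1.23), where none of the 24 rose. Lpcat2 and Lpcat3 did not pass (-1.01 ± 0.46 and 0.21 ± 0.20), the first doing so without tumor 4 (-1.38) and with limma voom (-1.16). The collectins did not move one way. Colec12 fell from 230.3 and 235 CPM to 5.22 to 10.3 CPM, and Colec10 was at 1.54 and 1.01 CPM in normal lung and at most 0.0298 in tumors. Colec11 rose by 1.10 ± 0.39, from 0.803 and 0.895 CPM to 1.48 to 2.34 CPM (adjusted p = 0.0438, edgeR). That call was lost without scaling (1.09), without the filter (1.07), and without normal 1 (1.02), normal 2 (1.17), tumor 3 (0.97) or tumor 5 (1.11). Lamp5, a relative of Lamp3, also rose, from 0 and 0.0432 CPM to 0.298 to 1.35 CPM (adjusted p = 0.0173, edgeR). It missed the threshold without normal 1 (adjusted p = 0.0776). Chil1, of a chitinase-like protein without enzyme activity, had 36.1, 37.2, 50.03 and 0.479 CPM in tumors 3 to 6 against 840 and 661 in normal lung, and missed the threshold without normal 1 (adjusted p = 0.0556).

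Most markers of other cells of normal lung were also lower. Of the lists examined, 9 of 10 alveolar type 1, 8 of 8 endothelial, 7 of 8 club cell, 6 of 8 ciliated, 6 of 8 fibroblast and 12 of 14 alveolar macrophage genes fell. Of the macrophage genes 1 did not pass and Fabp4 rose, from 7.19 and 15.2 CPM to 16.0 to 55.1 (log2 fold change 1.67 ± 0.60, adjusted p = 0.0442, edgeR). That call was lost with limma voom (1.61) and without normal 1 (1.22), normal 2 (2.29), tumor 3 (1.39) or tumor 6 (1.62). The 10 type 1 genes summed to 10738 and 9612 CPM in normal lung and to 294 to 576 in tumors, with 369 in tumor 6. Igfbp2, the gene of that list that did not pass, made up 357 CPM of the sum in tumor 4 and 200.3 in tumor 6. The other 9 summed to 228, 219, 231 and 168 CPM in tumors 3 to 6, so tumor 6 was then lowest (a sum added after seeing the data). The 8 club cell genes summed to 37908 and 34928 CPM, and to 112 to 498 in tumors, with 187 in tumor 6. The median level left was 2.85%, 2.60%, 2.93% and 1.33% in tumors 3 to 6 for 10 alveolar type 1 genes, and 1.50%, 1.74%, 1.86% and 0.966% for 8 endothelial genes. It was 1.13%, 0.432%, 0.657% and 0.566% for 8 club cell genes, cells that also express some surfactant proteins. For 14 other type 2 genes it was 3.81%, 3.08%, 5.27% and 0.815%, and for 14 alveolar macrophage genes 15.4%, 12.8%, 9.04% and 3.85%. Tumor 6 was not lowest for the club cell genes, for the 8 ciliated genes (9.65%, 3.70%, 6.41% and 10.0%) or for the 8 fibroblast genes (22.3%, 12.6%, 15.3% and 21.3%). No member of the type 1, club, ciliated, endothelial, fibroblast or macrophage lists was at 0 in any tumor. Of these lists, 1 of 10 type 1 genes (Ager) and 2 of 14 macrophage genes had the gap of at least 10 times in tumor 6, and none of the endothelial, club, ciliated or fibroblast genes did. Genes in none of the lists had it too, among them Cldn18 (158-fold) and Col4a3 (19.9-fold), so the gap was not confined to the listed genes. Which cells express these unlisted genes was not tested. How much of the remaining surfactant RNA came from normal lung within each tumor sample was not tested.

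**Figure D5:**
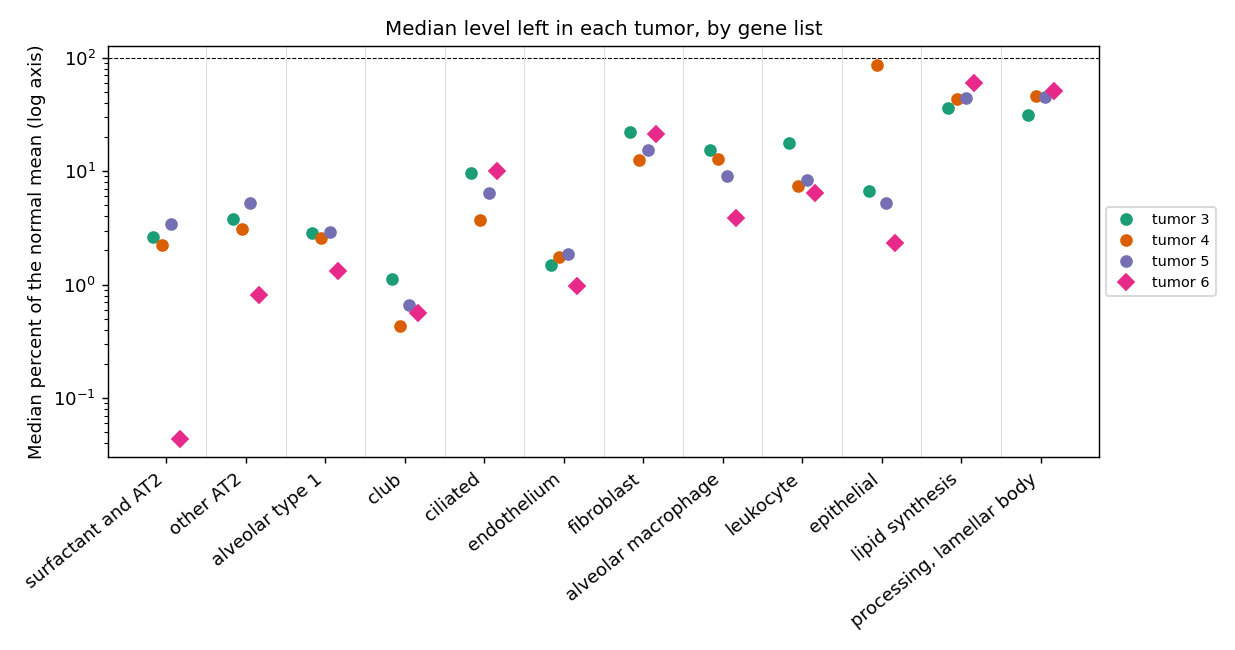
Median percent of the normal mean left in each tumor (log axis) for the 10 genes and 11 other gene lists, with circles for tumors 3, 4 and 5, diamonds for tumor 6 and the dashed line at 100. The 10 genes are at 0.0439% in tumor 6, against 0.566% for club cell, 0.815% for other type 2, 0.966% for endothelial and 1.33% for alveolar type 1 genes.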

How the data were processed

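Whole tissue RNA was poly(A) selected, per the labels' protocols. Per the labels, the authors deposited unnormalised counts per gene symbol from TPMCalculator. Which annotation and strand setting it used is not stated in the labels. The submitters' processing notes list mm9, STAR 2.5.4a, Trimmomatic 0.36, Trim Galore, R 3.5.1 and DESeq2, without saying how each was used. Reads of near-identical or overlapping genes cannot be told apart.

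The 10 genes and all lists were chosen with earlier results of these data known. Counts were fitted by edgeR 4.0.16 (quasi-likelihood F test, R 4.3.3) on 2 normal and 4 tumor libraries, treated as 1 batch. TMM scaling and filterByExpr (at least 10 counts in enough libraries and 15 in total) came first. The Benjamini-Hochberg method adjusted each p over the 18027 genes kept, and 0.05 was the threshold. The SE is the log2 fold change divided by the square root of F. Group values are mean ± SD. Likeness was taken on log2 CPM with 2 counts added. The common dispersion was a coefficient of variation of 0.432. The test was checked on simulated counts.

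As alternatives, scaling was by RLE, by upper quartile or by total alone. Others were no filter, a stricter filter (1 CPM throughout a group), removal of 1143 small non-coding, Rn45s and histone rows, DESeq2 1.42.0, limma 3.58.1 (voom), and leaving out each library. Named genes were the 10, every regulator, up to 4 genes per direction and list by smallest p, and the 10 most like Sftpc. Of these the text gives a part. Lpcat2, Lpcat3, Ctsh, S100g, Lgi3, Ccr7, Igfbp2, Chil4, Chit1, Abca12 and D330041H03Rik were chosen after their values were seen. Promoters came from RefSeq and exon lengths from GENCODE M21, both on GRCm38, a build other than mm9.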

Additional observations from a re-analysis of the deposited data

Results flagged for a closer look

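In 2 of the 10 genes, 1 tumor stood apart from the other 3 by Dixon's criterion for 4 samples, which compares the gap to the nearest sample with the whole range. Napsa was at 1.12 CPM in tumor 6, with a gap of 0.966 of the range, and Sftpd was at 2.18 CPM, with a gap of 0.834. Chance gives such a flag in about 1 of 20 groups. The criterion was applied to CPM, where the spread among tumors 3, 4 and 5 hides larger ratios, such as the 89.9-fold gap of Lamp3.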

How the results depend on the processing

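The number of the 10 genes that were lower was 10 under every alternative run. Their median log2 fold change was -5.64, and -6.81 with limma voom. Without 1 library it ran from -6.00 to -5.14. Of all genes, 11512 passed, or 7651 to 12079 without 1 library, and those higher numbered 5638, or 3373 to 5912, lowest without normal 1. The median level left was 2.61% in tumor 3, 2.25% in tumor 4 and 3.40% in tumor 5. With upper quartile factors it was 2.93%, 2.41% and 3.67%, and with non-coding and histone rows removed 2.88%, 2.37% and 3.64%. With no composition scaling tumor 4 had 2.08% and tumor 5 had 3.73%. In tumor 6 it ran from 0.0411% to 0.0474% over all settings. Without 1 normal library it ran from 2.47% to 2.71% in tumor 3, 2.14% to 2.32% in tumor 4 and 3.20% to 3.54% in tumor 5. The log2 fold change of Nkx2-1 was -0.18, and ran from -0.41 to 0.032 without 1 library, turning without tumor 4. That of Chil4 was 2.70, turned to -2.04 with limma voom, and ran from -4.83 (without tumor 6) to 5.75 without 1 library. That of Abca12 turned from 3.87 to -0.19 with limma voom. The cause of these changes was not tested, and leaving out a library also leaves fewer samples. No paired analysis was possible because the normal and tumor libraries share no replicate numbers. With 2 normal libraries the normal spread is poorly known.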

Other observations

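Of the 24 relatives of the 10 genes, 3 that were low in normal lung stood out in tumor 6. Chil4, of a chitinase-like protein, was at 37.7 CPM in tumor 6, at most 0.119 in tumors 3 to 5 and at 2.73 and 0.173 in normal lung. Chit1, of a true chitinase related to Chia1, was at 3.73 CPM in tumor 6 and at most 0.0298 in every other library, and was removed by the filter on low counts. Abca12, a lipid transporter of the family of Abca3, was at 9.39 CPM in tumor 6 and at most 0.302 elsewhere. Neither Chil4 nor Abca12 passed the edgeR test over the 4 tumors (log2 fold changes of 2.70 ± 3.15 and 3.87 ± 3.17). These genes were chosen after their values were seen, and each rests on 1 tumor.

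The summed level of general epithelial markers was highest in tumor 4. The 7 epithelial genes summed to 1121 and 1076 CPM in normal lung, 875 CPM in tumor 4 and 68.7, 54.0 and 29.8 CPM in tumors 3, 5 and 6. The 10 surfactant and type 2 genes summed to 598 CPM in tumor 4, which lay below tumors 3 and 5 at 632 and 831 CPM. Tumor 6 was the lowest tumor for 6 of the 7 epithelial genes. Of the 7, 1 (Krt19) was lower by edgeR, at 181 and 189 CPM in normal lung and 9.64, 5.09, 6.67 and 2.42 CPM in tumors 3 to 6, with no peak in tumor 4. All 7 passed as lower without tumor 4, and 6 did with limma voom.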
